A study of Mus musculus with 30 samples.

Results

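The genes followed here were Gfpt1, Gfpt2, Gnpnat1, Pgm3, Uap1, Nagk and Ogt, which encode the enzymes of the hexosamine pathway and the enzyme that uses its product on nuclear and cytoplasmic proteins. They were taken by name for the step each enzyme carries out and not for a measured value. These were 7 of the 52177 genes listed in both count tables of the series, and all 7 passed the filter on low counts in both experiments, where 16049 and 16054 genes were tested.

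The hexosamine pathway draws on fructose-6-phosphate, an intermediate of glycolysis, and on glutamine, acetyl-CoA and UTP, and ends in the nucleotide sugar UDP-GlcNAc. Gfpt1 and Gfpt2 are paralogous enzymes for the first and rate-limiting step, the transfer of an amino group from glutamine to the sugar phosphate. Gnpnat1 adds the acetyl group, Pgm3 moves the phosphate, and Uap1 joins the sugar to UTP. Nagk enters the same route from the side, by phosphorylating GlcNAc that is released from degraded glycans. UDP-GlcNAc is used for N-glycans, hyaluronan and other glycoconjugates, and Ogt uses it to place single O-GlcNAc residues on serines and threonines, a mark that Oga removes. Ogt is known to be required for the viability of mouse ESCs.

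RNA-seq was carried out on E14tg2a, a mouse ESC line, in 2 experiments with 3 libraries per group. In the time course, ESCs in Serum/LIF (0 h) were compared with ESCs after 3, 9 and 24 h in EMM, a Serum/LIF medium in which D-galactose replaces D-glucose and pyruvate. The labels give the control as 0 h, while the treatment note speaks of 24 h in Serum/LIF, so whether it is a start point or a control grown alongside the last time is not settled. In the passage experiment, ESCs were kept for 10 (P10) or 20 (P20) passages in Serum/LIF, in EMM or in 2i/LIF, a medium with inhibitors of MEK and GSK3. LIF was present in every group, all groups came from the same unmodified line, and the study's methods name gelatinized flasks and state 3 independent experiments.

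Total counts per library ran from 24074132 to 35301962 in the time course and from 6944904 to 27912928 in the passage experiment, so the passage libraries carried more counting error. All 8 ES cell markers checked (among them Pou5f1, Nanog and Sox2) passed the filter in both experiments, with summed levels of 4315 to 8124 CPM (counts scaled to the effective library size) in every library. Arrdc4, a gene known to follow glucose supply, was lower in EMM at each point (log2 fold changes of -2.16, -3.58 and -3.91 in the time course and -3.93 and -4.02 at P10 and P20). It was also lower in 2i/LIF than in Serum/LIF at P10 (log2 fold change -1.57, adjusted p = 1.26e-07) and higher in P20 than in P10 2i/LIF (1.27, adjusted p = 7.53e-06). In the passage experiment the Serum/LIF libraries also held transcripts of other cell types. The 6 fibroblast markers, of which 4 were tested, summed to 141 to 169.9 CPM in P10 Serum/LIF and 228 to 454 in P20 Serum/LIF, against 18.4 to 23.3 and 9.72 to 12.9 in EMM and 2.89 to 6.32 in 2i/LIF. Lum was at 0 in P10 EMM and Dcn in both 2i/LIF groups. The 6 trophectoderm markers, of which 5 were tested, summed to 212 to 239 and 115 to 176 in Serum/LIF and 17.1 to 30.2 in the other 4 groups, and Elf5 was at 0 in P10 EMM, P20 EMM and P10 2i/LIF. In the time course the trophectoderm markers (5 of 6 tested) summed to 76.4 to 84.5 in Serum/LIF and 109 to 153 in EMM, with Elf5 at 0 at 24 h, the fibroblast markers (5 of 6 tested) to 60.9 to 63.9 in Serum/LIF and 42.1 to 69.1 in EMM, and the 6 primitive endoderm markers to 13.8 to 15 in Serum/LIF, 15.9 to 16.8 at 3 h, 18 to 20.1 at 9 h and 25.0 to 25.5 at 24 h. In the passage experiment the primitive endoderm markers summed to 11 to 14.5 at P10 and 14.5 to 20.2 at P20 in Serum/LIF, 6.99 to 8.03 and 14.4 to 22.1 in EMM, and 5.86 to 6.63 and 4.97 to 8.72 in 2i/LIF. The part of these transcripts in the differences between groups was not tested, and in bulk RNA fewer cells of a type cannot be told apart from less RNA per cell.

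Sequence upstream of the start site was available from RefSeq (GRCm38.p6) for 6 of the 7 genes, and Gnpnat1 had no entry. The 250 bases before the start are shown for the paralogs Gfpt1 and Gfpt2, which differed between media in opposite directions, and for Nagk and Ogt, the other members that the results below turn on. All 4 are given 5′ to 3′ on the plus strand, with CpG dinucleotides in capitals.
Gfpt1, chr6:87042596-87042845: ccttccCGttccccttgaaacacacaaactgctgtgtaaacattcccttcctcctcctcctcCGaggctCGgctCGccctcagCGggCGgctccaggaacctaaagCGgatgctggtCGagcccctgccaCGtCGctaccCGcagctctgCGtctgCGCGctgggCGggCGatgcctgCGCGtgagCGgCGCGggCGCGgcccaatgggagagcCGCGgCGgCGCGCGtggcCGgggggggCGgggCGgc
Gfpt2, chr11:49793905-49794154: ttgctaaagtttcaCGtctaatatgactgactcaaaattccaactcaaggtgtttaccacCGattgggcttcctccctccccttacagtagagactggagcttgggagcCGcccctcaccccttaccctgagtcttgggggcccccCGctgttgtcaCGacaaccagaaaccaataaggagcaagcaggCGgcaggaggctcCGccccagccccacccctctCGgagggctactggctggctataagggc
Nagk, chr6:83794750-83794999: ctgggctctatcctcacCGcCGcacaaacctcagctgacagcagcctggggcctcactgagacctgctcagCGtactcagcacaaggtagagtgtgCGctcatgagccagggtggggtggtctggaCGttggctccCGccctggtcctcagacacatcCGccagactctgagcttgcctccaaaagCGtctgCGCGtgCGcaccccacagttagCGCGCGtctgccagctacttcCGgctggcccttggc
Ogt, chrX:101639801-101640050: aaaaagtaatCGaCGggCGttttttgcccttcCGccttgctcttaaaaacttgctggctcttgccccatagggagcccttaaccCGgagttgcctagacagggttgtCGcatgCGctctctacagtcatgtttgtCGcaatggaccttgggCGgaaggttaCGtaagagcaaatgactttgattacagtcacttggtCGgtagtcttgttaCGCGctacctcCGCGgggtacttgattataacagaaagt
Gfpt1 held 32 CpG dinucleotides in this stretch and Gfpt2 held 8, with 15 each for Nagk and Ogt, 28 for Pgm3 and 22 for Uap1. The median over all 32851 windows of the same length was 6. Letter patterns of factors linked to sugar or stress responses were searched on both strands of windows from 250 bases before to 50 after the start. These were the E-box CACGTG, the amino acid response element TGATGCAA, the unfolded protein response element TGACGTGG, and CCAAT followed after 9 bases by CCACG. None of the 7 windows of these 6 genes (2 for Ogt) held any of them, while 7.15%, 0.895%, 0.676% and 0.119% of all windows did, which says only that these letters are absent from these windows.

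To compare levels between genes, CPM values were divided by the merged exon length in kilobases. In Serum/LIF at 0 h, Gfpt2 stood highest at 29.9 ± 1.13 CPM per kilobase (mean ± SD, n = 3), followed by Ogt at 27.5 ± 1.95. Uap1 reached 12.5 ± 0.294, Gnpnat1 9.05 ± 0.438 and Pgm3 7.04 ± 0.424, Gfpt1 4.63 ± 0.208, and Nagk was lowest at 2.63 ± 0.316. Of the transcripts for the first step that of Gfpt2 prevailed, and that of the salvage kinase was the scarcest of the 7. In the passage experiment Ogt stood highest in each group. Nagk stood lowest in 4 of the 6 groups, the others being P10 EMM, where Gfpt1 was at 4.61 ± 0.116 and Nagk at 4.70 ± 0.589, and P20 2i/LIF, where Gfpt2 was at 4.11 ± 1.70 and Nagk at 4.33 ± 0.563.

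The time course asked how soon these genes differed after the change to EMM, in which the sugar is changed and pyruvate is absent. After 3 h in EMM, 2 of the 7 members passed an adjusted p of 0.01 (edgeR quasi-likelihood test with Benjamini-Hochberg adjustment over all tested genes, used throughout), with Nagk higher and Gnpnat1 lower, where 34.5% of all tested genes passed. At 9 h 6 of 7 passed, 5 higher and 1 lower, against 38.2% of all genes, and at 24 h 6 of 7 passed, 4 higher and 2 lower, against 44%. No member changed by more than 1 on the log2 scale at any of these times. The 3 comparisons share the same Serum/LIF libraries.

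**Figure D1:**
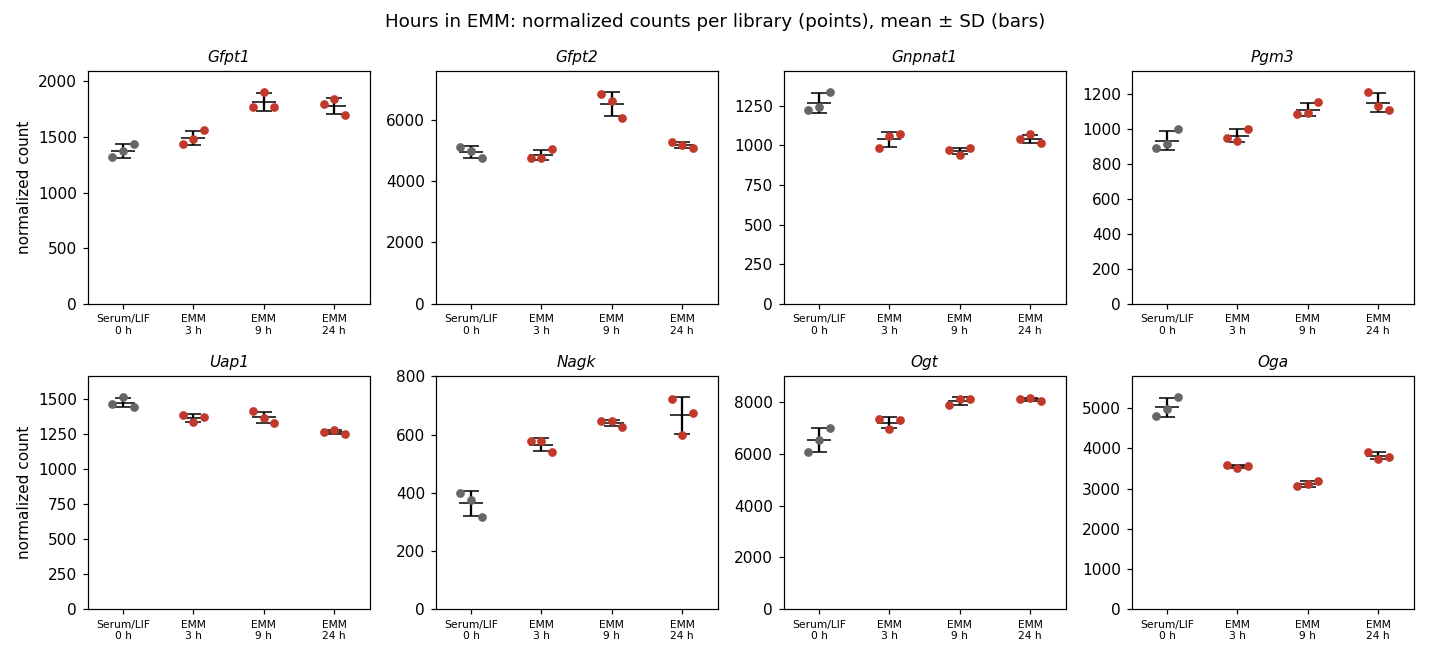
Normalized counts (y axis, from 0) of the 7 members and Oga in Serum/LIF at 0 h and after 3, 9 and 24 h in EMM; points are single libraries and bars show the mean ± SD of 3 libraries. Nagk lies higher and Gnpnat1 and Oga lie lower in every EMM library than in every Serum/LIF library, and Gfpt2 is highest at 9 h.

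Gfpt2 was higher at 9 h alone. Its normalized counts in the 3 libraries were 5108, 4976 and 4738 in Serum/LIF, 4750.2, 4763 and 5029 at 3 h, 6827, 6617 and 6056 at 9 h and 5261, 5174 and 5082 at 24 h. The 9 h libraries lay above all the others, and the 3 h and 24 h groups each overlapped Serum/LIF but not each other. Gfpt2 was 1.32-fold higher at 9 h (log2 fold change 0.40 ± 0.05 (SE), adjusted p = 4.52e-06), and the later fall was itself past the threshold (24 h against 9 h, log2 fold change -0.33 ± 0.05 (SE), adjusted p = 0.000134). At 24 h it stood at 1.05-fold its Serum/LIF level (adjusted p = 0.24). Against 26.5% of all genes that passed between 3 and 9 h, 3 of 7 members passed, and against 13% between 9 and 24 h, 1 of 7 did, which was Gfpt2.

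Gfpt1, its paralog, rose later than 3 h and stayed up. Its libraries gave 1316, 1374 and 1440.2 in Serum/LIF, 1433, 1482 and 1560.1 at 3 h, 1766, 1905 and 1771 at 9 h and 1798, 1837 and 1695 at 24 h. The 9 and 24 h groups overlapped each other and lay above both earlier groups, which also overlapped each other. The log2 fold change was 0.40 ± 0.05 (SE), adjusted p = 1.26e-05 at 9 h and 0.37 ± 0.05 (SE), adjusted p = 2.2e-05 at 24 h.

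The middle steps moved in different directions. Gnpnat1, the acetyltransferase, had 1222, 1241 and 1336 normalized counts in Serum/LIF and 979.7, 1061 and 1069.7 at 3 h, 968, 940.2 and 982 at 9 h and 1037, 1068 and 1012 at 24 h. All 9 EMM libraries lay under the lowest Serum/LIF library, with log2 fold changes of -0.29 ± 0.05, -0.39 ± 0.05 and -0.29 ± 0.05 (adjusted p = 0.00027, 1.29e-05 and 0.000215). Pgm3, the phosphate mutase, went from 891, 911 and 997 in Serum/LIF to 1084, 1092 and 1152 at 9 h and 1211, 1130.1 and 1109 at 24 h. It was 1.19-fold and 1.23-fold higher at those times (adjusted p = 0.00164 and 0.000292), and its 3 h libraries, at 949.8, 929 and 1001, overlapped those in Serum/LIF. Its rise between 3 and 9 h (log2 fold change 0.21 ± 0.06 (SE), adjusted p = 0.00751) lost its call without any single one of 5 of the 6 libraries compared, with adjusted p of up to 0.0325.

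Uap1, which makes UDP-GlcNAc itself, fell at 24 h. Its libraries gave 1469, 1515 and 1447 in Serum/LIF and 1265, 1281 and 1252 at 24 h, with no overlap (log2 fold change -0.22 ± 0.04 (SE), adjusted p = 0.0003). At 3 h the libraries gave 1389, 1335 and 1374 and at 9 h 1413, 1367 and 1331, all below the lowest Serum/LIF library. At these times 56.6% and 55.6% of all tested genes had groups without overlap. The log2 fold changes of Uap1 were -0.11 and -0.11 and missed the threshold (adjusted p = 0.0339 and 0.0387), while scaling by library totals alone gave -0.18 at 3 h, which passed (adjusted p = 0.0017). In the annotation Gnpnat1 lies wholly inside Styx on the other strand, over all 28580 bases of its span, and Pgm3 shares 1547 bases with Dop1a, also on the other strand. Whether the time-course counts used strand is not given in the sources used here. Styx had 878 counts in all over the 12 time-course libraries and Gnpnat1 had at least 947 in each, while Dop1a had 7356 over the 12. In the 18 passage libraries, from a kit that keeps strand, Styx had 9830 counts in all and Dop1a 5350, where Gnpnat1 had 330 to 1247 in a library.

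Nagk showed the largest change of the 7 at each time. It had 401, 374 and 316 normalized counts in Serum/LIF, 578, 577 and 539 at 3 h, 648, 645 and 627 at 9 h and 724, 599 and 674 at 24 h. The lowest EMM library lay above the highest Serum/LIF library, and the 9 and 24 h groups overlapped. The level was 1.55-fold, 1.76-fold and 1.83-fold that in Serum/LIF (log2 fold changes 0.64 ± 0.08, 0.82 ± 0.08 and 0.87 ± 0.08, adjusted p = 2.13e-05, 1.42e-06 and 4.95e-07).

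Ogt and Oga, which write and erase O-GlcNAc, moved in opposite directions. Ogt gave 6078, 6545 and 7003 in Serum/LIF, 7347, 6962 and 7321 at 3 h, 7881, 8133 and 8136 at 9 h and 8127, 8177 and 8059 at 24 h. At 9 and 24 h it was 1.23-fold and 1.24-fold higher without overlap (adjusted p = 5.63e-05 and 3.02e-05), and at 3 h the groups overlapped (log2 fold change 0.14 ± 0.04 (SE), adjusted p = 0.0185). DESeq2 called the 3 h difference as well (adjusted p = 0.00698). Oga, listed as Mgea5 in the annotation, had 4814, 4993 and 5277 in Serum/LIF and 3590.4, 3509.5 and 3558 at 3 h, 3059.7, 3107 and 3202 at 9 h and 3916, 3743 and 3787 at 24 h. It fell by 0.50, 0.69 and 0.40 on the log2 scale (adjusted p = 8.84e-08, 3.15e-09 and 5.61e-07), with all EMM libraries under all Serum/LIF libraries, and it rose again from 9 to 24 h (log2 fold change 0.29 ± 0.04 (SE), adjusted p = 0.000104).

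The passage experiment asked whether such differences are present after long culture. At P10, 3 of 7 members differed between EMM and Serum/LIF (Nagk and Pgm3 higher, Uap1 lower), where 37.4% of all tested genes did. At P20 only Nagk did, where 26% of all genes did. All comparisons between media at a passage share libraries with each other.

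**Figure D2:**
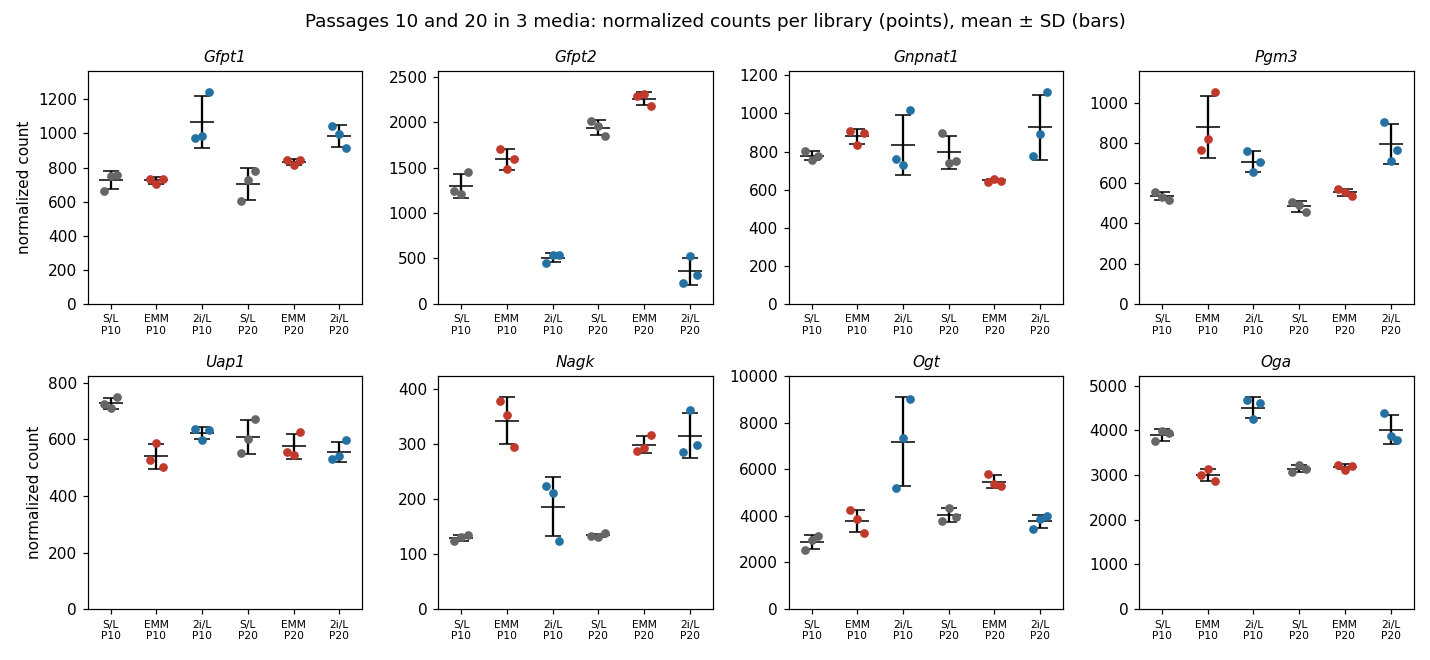
Normalized counts (y axis, from 0) of the 7 members and Oga at P10 and P20 in Serum/LIF (S/L, grey), EMM (red) and 2i/LIF (2i/L, blue); points are single libraries and bars show the mean ± SD of 3 libraries. Gfpt2 is lowest in the 2i/LIF groups, Nagk lies higher in EMM than in Serum/LIF at both passages, and the P10 2i/LIF libraries of Ogt run from 5197 to 9003.

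Nagk was higher in EMM at both passages. Its normalized counts were 124, 131 and 135 in P10 Serum/LIF and 379, 354 and 296 in P10 EMM. At P20 they were 133, 131 and 138 in Serum/LIF and 287, 293 and 318 in EMM. The lowest EMM library was above every Serum/LIF library at either passage. The level in EMM was 2.65-fold that in Serum/LIF at P10 (log2 fold change 1.41 ± 0.17 (SE), adjusted p = 1.81e-06) and 2.23-fold at P20 (log2 fold change 1.16 ± 0.16 (SE), adjusted p = 2.55e-05). These rest on few reads, between 110 and 184 raw counts in a Serum/LIF library. The same medium comparison did not differ detectably between passages (difference of log2 fold changes -0.25 ± 0.23 (SE), adjusted p = 0.485).

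In 2i/LIF Nagk differed between passages. The P10 2i/LIF libraries held 224, 211 and 125 and the P20 libraries 287, 363 and 298. One P10 library lay inside the Serum/LIF range, and all 3 P20 libraries lay above the P10 ones (log2 fold change 0.80 ± 0.17 (SE), adjusted p = 0.000921), a call that was lost with only these groups in the fit (adjusted p = 0.0316). Against Serum/LIF the log2 fold change was 0.49 ± 0.17 (SE), adjusted p = 0.0194 at P10 and 1.25 ± 0.17 (SE), adjusted p = 4.95e-06 at P20. EMM exceeded 2i/LIF at P10 (log2 fold change 0.92 ± 0.17 (SE), adjusted p = 0.000143) and the 2 media overlapped at P20 (log2 fold change -0.09 ± 0.16 (SE), adjusted p = 0.658). This change of the EMM to 2i/LIF difference was past the threshold (difference of log2 fold changes -1.002 ± 0.23 (SE), adjusted p = 0.00178).

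Nagk and Gfpt1 lie on chromosome 6, and the other 745 tested genes of that chromosome had a median log2 fold change of 0.33 in P20 2i/LIF against Serum/LIF and 0.11 at P10. The medians over the genes of all other chromosomes were -0.02 and 0.01. Less this median, the difference of Nagk was 0.92 at P20 and 0.38 at P10, and that of Gfpt1 was 0.16 and 0.46. In EMM against Serum/LIF the chromosome's medians were -0.01 at P10 and -0.03 at P20. For the X chromosome, where Ogt lies, the medians in EMM against Serum/LIF were -0.12 and -0.12, and -0.14 in P20 against P10 2i/LIF. In EMM against 2i/LIF the X median was -0.17 at P10 and 0.03 at P20, and it was 0.24 for the change of that difference and -0.19 for the change of 2i/LIF against Serum/LIF. Less these medians, the values of Ogt were -0.76, 0.51, 1.22 and -1.23. In EMM against 2i/LIF the chromosome 6 median was -0.12 at P10 and -0.34 at P20, and less it Nagk stood at 1.04 and 0.25 and Gfpt1 at -0.45 and 0.10, so that at P20 both stood below 0 before this subtraction and above 0 after it. The change of the EMM to 2i/LIF difference of Nagk, less a median of -0.15, was -0.85, and in P20 against P10 2i/LIF its value was 0.62 less a median of 0.18. The part of these chromosome-wide shifts in the members' values was not tested.

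The 2 paralogs of the first step differed between media in opposite directions in 2i/LIF. Gfpt2 held 1242, 1213 and 1455 normalized counts in P10 Serum/LIF, 1712, 1482 and 1594 in EMM and 452, 533 and 542 in 2i/LIF. At P20 it held 2015, 1958 and 1855 in Serum/LIF, 2297, 2314 and 2179.7 in EMM and 233, 522 and 321 in 2i/LIF. Every 2i/LIF library lay under every library of the other 2 media. Gfpt2 in 2i/LIF was 0.392-fold its Serum/LIF level at P10 (log2 fold change -1.35 ± 0.17 (SE), adjusted p = 1.71e-06) and 0.192-fold at P20 (log2 fold change -2.38 ± 0.17 (SE), adjusted p = 2.18e-09).

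Against 2i/LIF, EMM held 3.13-fold as much Gfpt2 at P10 and 6.08-fold as much at P20 (log2 fold changes 1.65 ± 0.17 and 2.60 ± 0.17, adjusted p = 2.17e-07 and 4.58e-10). Both differences grew from P10 to P20 (differences of log2 fold changes 0.96 ± 0.24 (SE), adjusted p = 0.00328 for EMM against 2i/LIF, and -1.03 ± 0.24 (SE), adjusted p = 0.00319 for 2i/LIF against Serum/LIF). The first lost its call without replicate 2 of P10 EMM or replicate 3 of either 2i/LIF group (values of 0.85 to 0.91, adjusted p of up to 0.0113), and the second without replicate 2 of P10 Serum/LIF or replicate 3 of P10 2i/LIF (values of -0.98, adjusted p of up to 0.0105). With only the compared groups in the fit both missed the threshold (adjusted p = 0.0118 and 0.0121). Between EMM and Serum/LIF the log2 fold changes were 0.29 at P10 and 0.22 at P20, and neither passed (adjusted p = 0.143 and 0.293). With only the compared groups in the fit, Gfpt2 passed at P20 (0.21, adjusted p = 0.00532), as did Gnpnat1 (-0.30, adjusted p = 0.00593, against -0.29 and 0.0711 with all groups).

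Gfpt1 held 664, 752 and 759 in P10 Serum/LIF, 734, 703 and 735 in EMM and 975, 985 and 1244 in 2i/LIF. At P20 it held 601, 726 and 782 in Serum/LIF, 845, 815 and 844 in EMM and 1043, 997 and 916 in 2i/LIF. The 2i/LIF libraries were above all libraries of the other media at both passages. The log2 fold change of 2i/LIF against Serum/LIF was 0.56 ± 0.10 (SE), adjusted p = 0.000126 at P10 and 0.48 ± 0.10 (SE), adjusted p = 0.000661 at P20. EMM stood at 0.999-fold the Serum/LIF level at P10 (adjusted p = 0.996) and 1.19-fold at P20 (adjusted p = 0.0651).

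**Figure D3:**
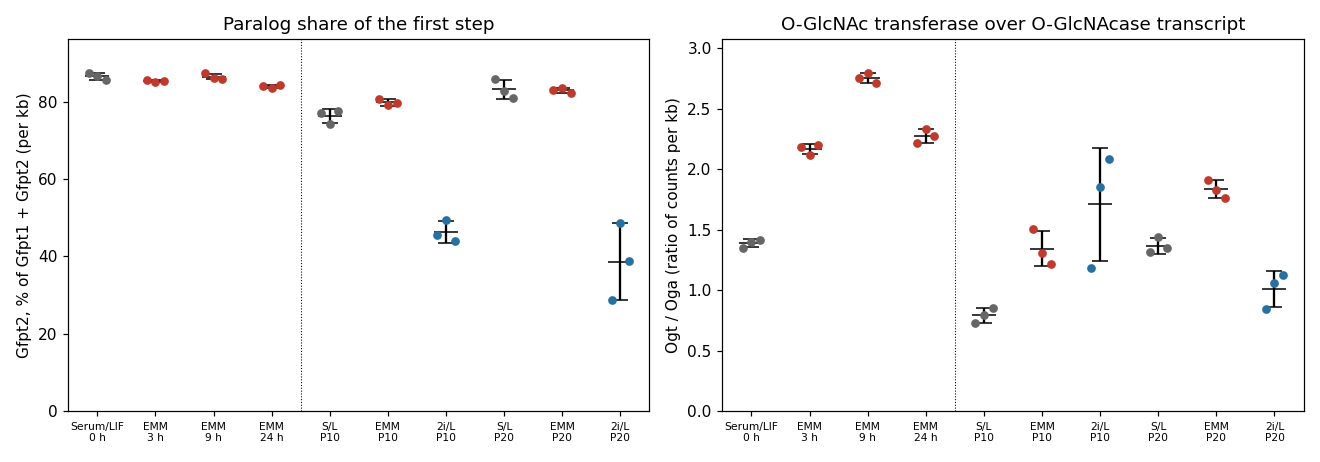
Left, Gfpt2 as a percentage of Gfpt1 plus Gfpt2, and right, the ratio of Ogt to Oga, both from counts per kilobase of exon, in each group of the time course (left of the dotted line) and the passage experiment; points are single libraries and bars show the mean ± SD of 3 libraries. The Gfpt2 share is between 74.4% and 87.5% in all libraries in Serum/LIF or EMM and between 28.7% and 49.4% in 2i/LIF.

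Per kilobase of exon, Gfpt2 made up 86.6 ± 0.967% of the 2 paralogs in Serum/LIF at 0 h and 84.0 ± 0.426% after 24 h in EMM. In the passage experiment its share was 76.4 ± 1.71% in Serum/LIF, 79.9 ± 0.835% in EMM and 46.3 ± 2.77% in 2i/LIF at P10, and 83.3 ± 2.40%, 83.0 ± 0.665% and 38.6 ± 9.95% at P20. Gfpt1 was the larger of the pair in every 2i/LIF library and Gfpt2 in every library of the other media. The spread was widest in P20 2i/LIF, where the libraries gave 28.7, 48.6 and 38.7%. An exact permutation test of 3 against 3 libraries cannot give a p under 0.1, which both passages gave for 2i/LIF against either other medium (two-sided, Benjamini-Hochberg adjusted p = 0.122 over the 28 ratio comparisons made).

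Among the middle steps, Pgm3 passed between EMM and Serum/LIF at P10 and not at P20. Its libraries held 556, 533 and 516 in P10 Serum/LIF and 763, 819.8 and 1054 in P10 EMM (log2 fold change 0.71 ± 0.11 (SE), adjusted p = 3.68e-05). At P20 they held 508, 490.0 and 455 in Serum/LIF and 570.3, 558 and 537 in EMM (log2 fold change 0.19 ± 0.11 (SE), adjusted p = 0.175). The groups did not overlap at either passage, as for 58.2% and 59.6% of all tested genes. The change of this difference between passages missed the threshold (difference of log2 fold changes -0.51 ± 0.16 (SE), adjusted p = 0.0213). In EMM itself Pgm3 fell from P10 to P20 (log2 fold change -0.65 ± 0.11 (SE), adjusted p = 0.00016).

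In 2i/LIF Pgm3 held 759.7, 655 and 705 at P10 and 905, 712 and 767 at P20, above every Serum/LIF library of the same passage. The log2 fold change against Serum/LIF was 0.40 ± 0.11 (SE), adjusted p = 0.00409 at P10, where 4 of 7 members passed against 52% of all genes, and 0.70 ± 0.11 (SE), adjusted p = 3.03e-05 at P20, where again 4 of 7 passed, against 44.2%. The P10 call was lost without any single one of 4 of the 6 libraries (adjusted p of up to 0.0176) and with another filter on low counts (0.0157 with none and 0.017 with at least 10 counts in every library).

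Gnpnat1 and Uap1 varied less. Uap1 was lower in P10 EMM, with 529, 589 and 504 normalized counts against 726, 710.3 and 749.6 in Serum/LIF (log2 fold change -0.43 ± 0.09 (SE), adjusted p = 0.000683), and did not pass at P20 (log2 fold change -0.08 ± 0.09 (SE), adjusted p = 0.5). Gnpnat1 did not pass between EMM and Serum/LIF at P10 or P20, with log2 fold changes of 0.18 and -0.29 (adjusted p = 0.258 and 0.0711). At P20 it was lower in EMM, at 642, 656 and 646, than in 2i/LIF, at 775, 894 and 1113 (log2 fold change -0.53 ± 0.13 (SE), adjusted p = 0.00145), and without replicate 3 of P20 2i/LIF this became -0.37 with adjusted p = 0.016. Its counts in the passage table were estimates, fractional in 14 of 18 libraries, while those of the other 6 members were whole to within 0.01.

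**Figure D4:**
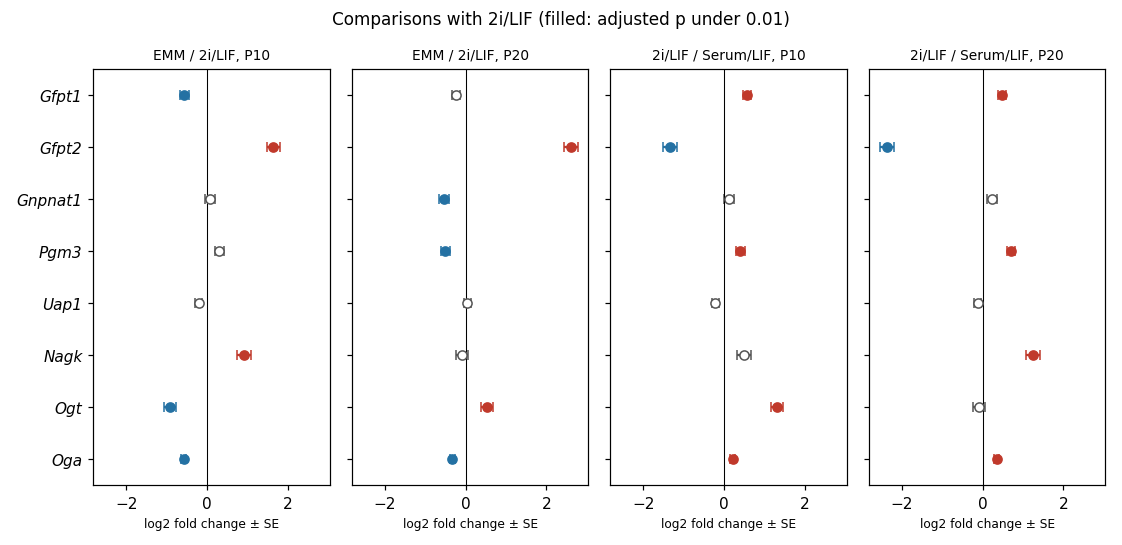
Log2 fold change ± SE (x axis) of the 7 members and Oga in EMM against 2i/LIF and in 2i/LIF against Serum/LIF, at P10 and P20; filled points passed an adjusted p of 0.01 (red higher, blue lower) and open points did not. Gfpt2 lies at 2.60 in EMM against 2i/LIF at P20, and Ogt changes side, from -0.92 at P10 to 0.54 at P20.

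EMM and 2i/LIF were compared directly at both passages. At P10, 4 of 7 members differed (Gfpt2 and Nagk higher and Gfpt1 and Ogt lower in EMM), against 45.1% of all tested genes. At P20, 4 differed (Gfpt2 and Ogt higher, Gnpnat1 and Pgm3 lower), against 48.6%. The difference itself changed between passages for 4 members, Gfpt2, Pgm3, Nagk and Ogt, against 32.3% of all genes. DESeq2 called 5, with Gnpnat1 (-0.59 and adjusted p = 0.0113 in edgeR), which also passed with DESeq2 size factors and without the filter (adjusted p = 0.00342, 0.00854 and 0.00193 in turn). That of Pgm3 went from 0.31 to -0.51 (difference -0.81 ± 0.15 (SE), adjusted p = 0.000377).

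Ogt in 2i/LIF differed between passages and between replicates. In P10 2i/LIF its libraries held 5197, 7365 and 9003 normalized counts, against 2555, 2980.3 and 3129 in Serum/LIF and 4234, 3848 and 3273 in EMM. At P20 they held 3456, 3849 and 4002 in 2i/LIF, 3794, 4353 and 3939 in Serum/LIF and 5793, 5353 and 5273 in EMM. At P10 every 2i/LIF library was above every library of the other media, and at P20 the 2i/LIF and Serum/LIF groups overlapped while EMM was above both.

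Between 2i/LIF and Serum/LIF the log2 fold change of Ogt was 1.32 ± 0.14 (SE), adjusted p = 3.31e-07 at P10 and -0.09 ± 0.14 (SE), adjusted p = 0.596 at P20, and the difference between passages was -1.41 ± 0.20 (SE), adjusted p = 7.01e-05. Against 20% of all genes, 2 of 7 members changed in this way, Ogt and Gfpt2. Between EMM and 2i/LIF the sign turned, from -0.92 ± 0.14 (SE), adjusted p = 2.61e-05 at P10 to 0.54 ± 0.14 (SE), adjusted p = 0.00338 at P20 (difference 1.46 ± 0.20 (SE), adjusted p = 1.88e-05). The P20 value lost its call without replicate 1 of either group (values of 0.50 and 0.47, adjusted p of up to 0.0152). In 2i/LIF itself Ogt fell from P10 to P20 (log2 fold change -0.93 ± 0.14 (SE), adjusted p = 5.79e-05).

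The P10 2i/LIF libraries of Ogt also differed in other ways. The library with the fewest Ogt counts had 1.47% of its counts on mitochondrial genes and the others 3.35% and 3.39%, and the median deviation of X-linked genes from their mean over all libraries was 0.03 in that library and 0.11 and 0.18 in the others. Their part in the spread was not tested.

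Between EMM and Serum/LIF, Ogt stood at 1.31-fold at P10 and 1.36-fold at P20. The groups did not overlap, as for 58.2% and 59.6% of all tested genes, and neither difference passed (log2 fold changes 0.39 ± 0.14 (SE), adjusted p = 0.0298, and 0.44 ± 0.14 (SE), adjusted p = 0.0196). With only the compared groups in the fit, both passed (adjusted p = 0.00853 and 0.000187), as they did without a filter on low counts (0.00388 and 3.1e-05). Oga was lower in P10 EMM, with 3007, 3147 and 2873 against 3756, 3998 and 3938 (log2 fold change -0.37 ± 0.07 (SE), adjusted p = 0.000129), and overlapped Serum/LIF at P20 (log2 fold change 0.02 ± 0.07 (SE), adjusted p = 0.864). This difference between passages was past the threshold (difference of log2 fold changes 0.39 ± 0.09 (SE), adjusted p = 0.0045).

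The ratio of Ogt to Oga per kilobase of exon joined both movements. In the time course it was 1.39 ± 0.0357 in Serum/LIF, 2.17 ± 0.0425 at 3 h, 2.75 ± 0.0412 at 9 h and 2.27 ± 0.0581 at 24 h, and no group overlapped another. At P10 it was 0.790 ± 0.0613 in Serum/LIF, 1.34 ± 0.147 in EMM and 1.71 ± 0.467 in 2i/LIF, and at P20 1.37 ± 0.0646, 1.83 ± 0.0756 and 1.01 ± 0.149. EMM lay above Serum/LIF without overlap at each time and passage, and each of these 5 comparisons gave the smallest p that 3 against 3 libraries allow (exact permutation test, two-sided p = 0.1, adjusted p = 0.122). In P10 2i/LIF the ratio ran from 1.19 to 2.09 over the libraries and covered the EMM range.

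Between passages within a medium, the share of members called in EMM and in 2i/LIF was near that of all genes, and nothing is read from those counts. In Serum/LIF 0 of 7 passed in edgeR, against 6.01% of all genes, with 3 at an unadjusted p under 0.05 and 1 (Gfpt2) in DESeq2. Gfpt2 had 1304 ± 132 (SD) at P10 and 1942 ± 81.2 at P20 (log2 fold change 0.58 ± 0.16 (SE), adjusted p = 0.0223). In EMM 2 of 7 passed, Ogt higher and Pgm3 lower at P20, against 25.3%, and 4 passed, Gfpt2 and Gnpnat1 with them, in DESeq2, with only the compared groups, without the filter or at an adjusted p under 0.05. The Ogt rise in EMM (log2 fold change 0.53 ± 0.14 (SE), adjusted p = 0.00708) lost its call without any single one of 5 of the 6 libraries, with values of 0.42 to 0.56 and adjusted p of up to 0.0481. In Serum/LIF the Ogt libraries gave 2555, 2980.3 and 3129 at P10 and 3794, 4353 and 3939 at P20 (log2 fold change 0.48 ± 0.14 (SE), adjusted p = 0.0306). These groups did not overlap, as for 41.1% of all tested genes. The change of the EMM to Serum/LIF difference of Ogt was 0.05 ± 0.20 (SE), adjusted p = 0.894, so a rise particular to EMM is not shown. In 2i/LIF 2 of 7 passed, Nagk and Ogt, against 28.3%. The mitochondrial share of counts moved with passage too, from 0.986 to 1.23% at P10 to 2.16 to 2.24% at P20 in Serum/LIF and from 0.848 to 1.88% to 2.26 to 2.54% in EMM. The ES cell markers of EMM summed to 6144 to 8124 CPM at P10 and 4636 to 4756 at P20, and the part of both in the passage differences was not tested. For EMM against Serum/LIF, the change between passages passed for 0 of 7 members in edgeR and 0 in DESeq2, against 14.7% of all genes, with 3 at an unadjusted p under 0.05.

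The order of the groups differed from gene to gene. Gfpt2 ran from P20 EMM through P20 Serum/LIF, P10 EMM and P10 Serum/LIF down to P10 and P20 2i/LIF, and of these neighbours the last pair alone overlapped. Nagk fell into an upper set (P10 EMM, P20 2i/LIF and P20 EMM) and a lower set (P10 2i/LIF, P20 and P10 Serum/LIF), with overlap between neighbours within each set and none between the sets. Ogt ran from P10 2i/LIF and P20 EMM, which overlapped, through P20 Serum/LIF, P10 EMM and P20 2i/LIF, which overlapped as neighbours, to P10 Serum/LIF. The order for Uap1 was P10 Serum/LIF, then P10 2i/LIF, P20 Serum/LIF, P20 EMM, P20 2i/LIF and P10 EMM, the last 5 overlapping as neighbours.

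Pgm3 ran from P10 EMM through P20 and P10 2i/LIF, overlapping as neighbours, to P20 EMM and P10 Serum/LIF, which overlapped, and P20 Serum/LIF. For Gfpt1 the 2i/LIF groups overlapped each other and stood above P20 EMM, which stood above the overlapping P10 Serum/LIF, P10 EMM and P20 Serum/LIF. In Gnpnat1 the first 5 places overlapped as neighbours, and P20 EMM stood below them.

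The wider use and salvage of amino sugars was read from 36 further genes in 8 groups. In EMM against Serum/LIF, 6 were higher and 7 lower of 34 tested at 3 h, 13 and 6 at 9 h, and 12 and 6 at 24 h, where 34.5%, 38.2% and 44% of all genes were called in either direction. At P10 8 were higher and 7 lower of 35 tested, and at P20 8 and 4, against 37.4% and 26% of all genes. Their median log2 fold changes lay between -0.09 and 0.12.

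The genes nearest to Nagk were those of amino sugar salvage and return. Gnpda1 and Gnpda2 turn glucosamine-6-phosphate back into fructose-6-phosphate, Amdhd2 removes the acetyl group, Renbp interconverts GlcNAc and N-acetylmannosamine, Npl cleaves sialic acid, and Uap1l1 is a paralog of Uap1. Of these 6 genes, 3 were higher at 3 h, and 4 at 9 h, 24 h, P10 and P20, where 34.5%, 38.2%, 44%, 37.4% and 26% of all genes were called in either direction. Npl and Gnpda2 were lower at 9 h, Npl at 24 h, and Gnpda2 at P10 and P20. The median log2 fold changes were 0.33, 0.68, 0.65, 1.35 and 0.99. The list was drawn up with earlier results of these samples known and is not independent evidence of this direction.

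**Figure D5:**
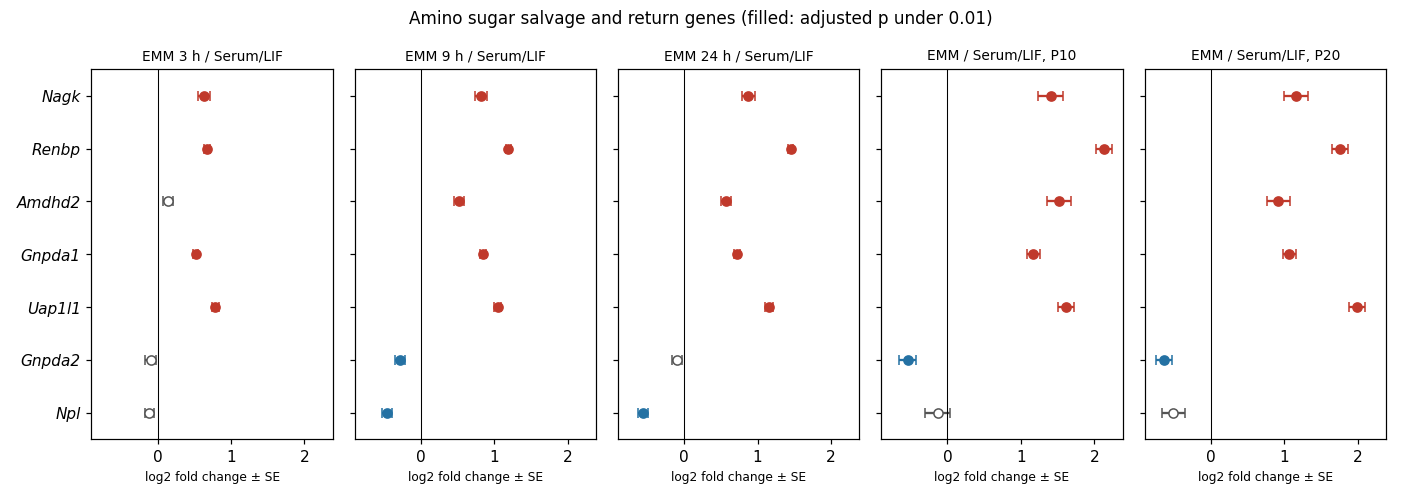
Log2 fold change ± SE (x axis) of Nagk and the 6 genes of amino sugar salvage and return in EMM against Serum/LIF after 3, 9 and 24 h and at P10 and P20; filled points passed an adjusted p of 0.01 (red higher, blue lower) and open points did not. Nagk, Renbp, Gnpda1 and Uap1l1 pass in all 5 comparisons with higher levels in EMM, Amdhd2 passes in all but the first, Npl passes at 9 and 24 h with lower levels, and Gnpda2 at 9 h, P10 and P20 with lower levels.

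Renbp had 2130.1, 2088 and 2173 normalized counts in Serum/LIF at 0 h and 5869, 5583 and 5984 after 24 h in EMM, and 696, 688 and 598 in P10 Serum/LIF against 2523, 2958 and 3225 in P10 EMM. The groups were far apart, with log2 fold changes of 1.45 ± 0.04 (SE), adjusted p = 9.52e-13 at 24 h and 2.13 ± 0.11 (SE), adjusted p = 2.31e-11 at P10. Uap1l1 went from 1763, 1839 and 1705 to 4209, 3721 and 3891 within 24 h (log2 fold change 1.15 ± 0.05 (SE), adjusted p = 8.41e-11) and stood at 1.61 and 1.99 on the log2 scale at P10 and P20. So Uap1l1 was higher and its paralog Uap1 lower at 24 h and at P10.

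Gnpda1 gave log2 fold changes of 0.52, 0.85, 0.72, 1.17 and 1.07 in the 5 comparisons. Amdhd2 was not past the threshold at 3 h (0.14 ± 0.07 (SE), adjusted p = 0.0946) and reached 1.52 ± 0.16 (SE), adjusted p = 4.27e-07 at P10. Npl fell by 0.46 at 9 h and 0.56 at 24 h on the log2 scale (adjusted p = 4.19e-05 and 6.12e-06). Gnpda2, the paralog of Gnpda1 and named here after its values were seen, had log2 fold changes of -0.09, -0.28, -0.09, -0.54 and -0.64 (adjusted p = 0.287, 0.00386, 0.283, 0.0011 and 0.000226). Against 2i/LIF, Renbp and Gnpda1 in EMM did not pass at P10 (log2 fold changes 0.05 and 0.21, adjusted p = 0.686 and 0.0523) and were higher at P20 (0.92 and 0.70, adjusted p = 3.67e-07 and 2.2e-06). The remaining genes of the list all passed at P10. Amdhd2, Uap1l1 and Npl were higher in EMM (1.26, 0.57 and 1.39, adjusted p = 3.03e-06, 0.00016 and 4.31e-06) and Gnpda2 was lower (-0.82, adjusted p = 1.34e-05). At P20 Uap1l1 and Npl were higher (1.25 and 1.51, adjusted p = 1.16e-08 and 5.74e-07), and Amdhd2 and Gnpda2 did not pass.

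Of 6 genes that supply the pathway (glucose transporters, hexokinases, Gpi1 and Glul), 2 were higher and 1 lower at 3 h in EMM against Serum/LIF, 4 and 1 at 9 h, 3 and 1 at 24 h, 3 and 2 at P10, and 1 and 1 at P20. Their median log2 fold changes were 0.02, 0.37, 0.20, 0.36 and 0.19. In the same comparisons 34.5%, 38.2%, 44%, 37.4% and 26% of all genes were called in either direction. Hk2, a hexokinase, was higher at 3, 9 and 24 h and at P10 (log2 fold changes 0.29, 0.48, 0.25 and 0.96) and at 0.56 did not pass at P20 (adjusted p = 0.0106). Slc2a1, the main glucose transporter of many cells, was higher at 9 h and lower in P10 EMM than in Serum/LIF (log2 fold changes 0.25 and -0.53, adjusted p = 0.00136 and 0.0023) and higher than in 2i/LIF at both passages (1.11 and 1.62, adjusted p = 1.05e-06 and 6.93e-09). Hk1 was lower at 3 h and higher at P10 than in Serum/LIF (log2 fold changes -0.31 and 0.70, adjusted p = 0.00128 and 2.22e-06) and stood below its 2i/LIF level in both EMM groups (-1.02 and -1.69, adjusted p = 1.19e-08 and 1.08e-11).

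Among the users of UDP-GlcNAc, the genes named here without a log2 change over 1 (Slc35a3, Mgat1, Mgat3, Alg13, Gne, Nans, Slc35a1 and Cmas) were chosen after their values were seen. Of 5 genes for the exchange and transport of UDP-sugars, Slc35b4 was higher in EMM at 3, 9 and 24 h and at both passages (log2 fold changes 0.36, 0.40, 0.36, 0.69 and 1.02, adjusted p = 2.68e-05, 9.11e-06, 1.93e-05, 9.85e-05 and 2.25e-06). Slc35a3 was higher at 9 h and at P20 (0.36 and 0.37, adjusted p = 0.000779 and 0.00915). Slc35d2 was lower at P20 (log2 fold change -2.41 ± 0.30 (SE), adjusted p = 5.3e-06), with 14.0, 9.51 and 11.6 normalized counts in EMM and 72.5, 52.1 and 61.3 in Serum/LIF. Of 6 N-glycan branching genes, 2 were lower at 3 h (Mgat1 and Mgat3) and 1 was higher at 9 and at 24 h (Mgat4a). At these times 34.5%, 38.2% and 44% of all genes were called in either direction. Mgat5 of this list stood below its 2i/LIF level in EMM at both passages (log2 fold changes -2.71 and -1.56, adjusted p = 3.51e-12 and 2.2e-09), and Mgat4a above it (1.15 and 0.78, adjusted p = 6.4e-06 and 0.000177).

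Of 3 genes for the first N-glycan steps, 1 (Alg13) was higher at 9 and at 24 h, and of 5 sialic acid genes (4 tested in the time course) 2 were lower at 3 h (Gne and Slc35a1), 1 was higher (Slc35a1) and 2 were lower (Gne and Nans) at 9 and at 24 h, 2 were lower at P10 (Gne and Nans), and 1 was higher (Cmas) and 1 lower (Nans) at P20. The shares of all genes called in either direction were 34.5%, 38.2% and 44% in the time course and 37.4% and 26% at P10 and P20. Has2, which makes hyaluronan, was lower in EMM at 3 h, 24 h and P10 (log2 fold changes -0.57, -0.70 and -3.26, adjusted p = 0.00101, 0.00015 and 3.57e-07) and did not pass at 9 h (-0.28, adjusted p = 0.0523) or P20 (-0.62, adjusted p = 0.101). Its level was 189 ± 31.9 normalized counts (SD, n = 3) in Serum/LIF and 19.3 ± 3.26 in EMM at P10, and 85.5 ± 6.16 and 55.3 ± 4.99 at P20. It was higher than in 2i/LIF at P20 (2.62, adjusted p = 1.12e-05), and Has3 was lower than in 2i/LIF at P20 (-1.52, adjusted p = 0.00127). Both rest on few reads. Has2 had 0, 8.87 and 13.4 normalized counts in P20 2i/LIF, and Has3 had 27.9, 20.1 and 23.9 in P20 EMM. Eogt, which places O-GlcNAc on secreted proteins, was higher at 24 h (log2 fold change 0.36, adjusted p = 0.000473) and below its 2i/LIF level in both EMM groups (-0.91 and -1.87, adjusted p = 0.000135 and 6.6e-09).

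Gfpt1 is known as a target of the stress factors XBP1 and ATF4, so genes of both were read beside it. Of 7 ATF4 target genes, 5, 6 and 6 were lower at 3, 9 and 24 h, with median log2 fold changes of -0.32, -0.52 and -1.11, and 4 and 5 were lower at P10 and P20, while the others did not pass. The shares of all genes called in either direction were 34.5%, 38.2% and 44% in the time course and 37.4% and 26% at P10 and P20, for this list and the next. Gfpt1 itself was higher at 9 and 24 h and did not pass at 3 h, P10 or P20. Of 6 XBP1 and ATF6 target genes, 2 were higher at 3 h, 2 were higher and 1 lower at 9 h, 3 were lower at 24 h, 3 were higher and 1 lower at P10, and 1 was higher at P20. The part of these factors in the level of Gfpt1 was not tested.

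As a description, the genes most like each member were sought over the 30 libraries by Pearson's r of log2 levels centred within each experiment, among 14647 genes. The libraries share media and experiments, so r carries the group differences. Gfpt2 was most like Arhgap29 (r = 0.972), Ogt like Slc25a36 (r = 0.948), Pgm3 like Usp4 (r = 0.95), Gfpt1 like Usp24 (r = 0.926), Nagk like Grin2c (r = 0.916), Uap1 like Pla2g4a (r = 0.826) and Gnpnat1 like Hdac1 (r = 0.815). Within the time course alone the r of Gfpt2 with Arhgap29 was 0.671 and within the passage experiment 0.977. Among the members themselves r ran from -0.71 for Uap1 and Nagk to 0.648 for Gfpt1 and Ogt, and the paralogs Gfpt1 and Gfpt2 had r = -0.582.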

How the data were processed

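RNA-seq of E14tg2a ESCs gave 12 libraries for the time course and 18 for the passage experiment, in groups of 3 taken from the labels. The deposited time-course table holds raw read counts per gene (per the labels the authors used STAR and featureCounts on mm10). The deposited passage table holds estimated counts (per the labels STAR and Salmon on mm10), of which 5.49% lay over 0.01 from a whole number, and all were rounded. The study's methods name HTSeq instead, and versions are not given in the sources used here. No column of another series was used. Counts were fitted with edgeR 4.0.16 (R 4.3.3, limma 3.58.1) by the quasi-likelihood test with TMM scaling, genes filtered by filterByExpr and all groups of an experiment in 1 model; the threshold was an adjusted p of 0.01 over all tested genes. Normalized counts are counts scaled to the mean effective library size. The fit was tested on simulated data.

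Named were the 7 members, Oga, Arrdc4, Gnpda2 (after its values were seen), the 3 genes most like each member (the first of which is given), and pathway genes called with a log2 change over 1 in EMM against Serum/LIF (3 h, 24 h, P10, P20) or against 2i/LIF. Slc35a3, Mgat1, Mgat3, Alg13, Gne, Nans, Slc35a1 and Cmas were also named after their values were seen. Members and lists were chosen with earlier results of these data known. Lengths and overlaps came from GENCODE M21, and CpG and motif counts from RefSeq windows. Alternatives were DESeq2 1.42.0 (test and size factors), library totals, other filters and thresholds, only the compared groups, a replicate block, and leaving out each library. Independent experiments are stated by the study, and p-values measure the spread between these libraries. The file of each experiment was tested on its own, so levels are not compared between tables.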

Additional observations from a re-analysis of the deposited data

Results flagged for a closer look

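For 4 members the difference between media was itself different at P10 and P20 by an interaction term (edgeR, adjusted p from all tested genes). For EMM against 2i/LIF the log2 difference changed by 0.96 for Gfpt2 (from 1.65 to 2.60), by -0.81 for Pgm3 (from 0.31 to -0.51), by -1.002 for Nagk (from 0.92 to -0.09) and by 1.46 for Ogt (from -0.92 to 0.54). For 2i/LIF against Serum/LIF it changed by -1.03 for Gfpt2 (from -1.35 to -2.38) and by -1.41 for Ogt (from 1.32 to -0.09). Both sets share the 2i/LIF libraries. With each library left out in turn, both changes of Gfpt2 lost their call without some single libraries (adjusted p of up to 0.0113 and 0.0105). Those of Pgm3, Nagk and Ogt kept theirs. No other test for single outlying libraries was made.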

How the results depend on the processing

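Of the counts of members past the threshold, 236 stayed within 1.5 times the reported count over the alternatives and 37 did not. With a log2 fold change over 1 asked for as well, the count was 0 at 3, 9 and 24 h, between 9 and 3 h, between 24 and 9 h, and between passages in EMM and in 2i/LIF. It was then 1 in EMM against Serum/LIF at P10 and in EMM against 2i/LIF at each passage, and 2 in 2i/LIF against Serum/LIF at each passage and in the change of EMM against 2i/LIF. At an adjusted p of 0.05 it was 4 at 3 h and between passages in EMM, 2 in EMM against Serum/LIF at P20 and between passages in Serum/LIF, and 1 in the change of EMM against Serum/LIF. With only the compared groups fitted it was 4 in EMM against Serum/LIF at P20 and between passages in EMM, 2 between passages in Serum/LIF and in the change of EMM against Serum/LIF, and 1 between passages in 2i/LIF and in the change of 2i/LIF against Serum/LIF. Without a filter on low counts it was 2 in EMM against Serum/LIF at P20, 2 between passages in Serum/LIF and 4 between passages in EMM, and in DESeq2 it was 1 and 4 for the last 2. The cause was not tested.

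Scaling by library totals shifted the median of all genes by up to -0.12 (2i/LIF against Serum/LIF, P20) and turned the sign of Pgm3 at 3 h (-0.028) and of Gfpt1 between passages in Serum/LIF (0.025). Without a filter the sign turned for Gnpnat1 between passages in Serum/LIF (-3.3e-05) and for Gfpt2 in the change of EMM against Serum/LIF (0.0014). None of these differences was called. The labels do not say that equal replicate numbers mark a shared batch or day. Correlations of same-numbered deviations were over 0.1 for 7 of 18 pairs in the time course and 15 of 45 in the passage experiment, not for every pair, and the samples were therefore not treated as paired. Of the libraries, 6 of 12 and 11 of 18 correlated best with their own number, a hint from the data and not from the design. Numbers came from the sample titles, while the time-course descriptions count EMM replicates from 2 to 4, and matching by those was not run. With the replicate number of the title as a block, Gfpt1 in EMM against Serum/LIF at P10 became 0.0039, and Ogt between 9 and 3 h, Gnpnat1 between passages in EMM and Gnpnat1 in the change of EMM against 2i/LIF passed (adjusted p = 0.00932, 0.00897 and 0.00923). No other call changed with the block.

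Leaving out each library in turn gave 1 to 3 members for the change of 2i/LIF against Serum/LIF, 0 to 1 for the change of EMM against Serum/LIF and 1 to 2 between passages in EMM. Log2 values of uncalled differences turned in sign as follows. Gfpt1, 2i/LIF, P20 against P10 ran from -0.18 to 0.0046. Gfpt1, EMM 24 h against EMM 9 h ran from -0.060 to 0.0060. Gfpt1, EMM against Serum/LIF, P10 ran from -0.049 to 0.041. Gfpt1, Serum/LIF, P20 against P10 ran from -0.12 to 0.059. Gfpt1, change of 2i/LIF against Serum/LIF from P10 to P20 ran from -0.19 to 0.049. Gnpnat1, 2i/LIF against Serum/LIF, P10 ran from -0.060 to 0.20. Gnpnat1, EMM against 2i/LIF, P10 ran from -0.021 to 0.24. Gnpnat1, Serum/LIF, P20 against P10 ran from -0.059 to 0.082. Gnpnat1, change of 2i/LIF against Serum/LIF from P10 to P20 ran from -0.030 to 0.29. Nagk, EMM 24 h against EMM 9 h ran from -0.0094 to 0.12. Nagk, EMM against 2i/LIF, P20 ran from -0.15 to 0.034. Ogt, EMM 24 h against EMM 9 h ran from -0.0036 to 0.020. Ogt, change of EMM against Serum/LIF from P10 to P20 ran from -0.059 to 0.14. Uap1, EMM 9 h against EMM 3 h ran from -0.0095 to 0.027. Uap1, EMM against 2i/LIF, P20 ran from -0.019 to 0.10. Some differences that did not pass as reported passed with a library left out. With all libraries each of them passed at an adjusted p under 0.05. Those of Ogt, Gfpt2, Gnpnat1, Pgm3 (against Serum/LIF) and Nagk (the change) passed under further settings too. Gfpt2, 2i/LIF, P20 against P10 passed without P20 2i/LIF replicate 2 (-0.84, adjusted p = 8.71e-05). Gnpnat1, change of EMM against 2i/LIF from P10 to P20 passed without P10 2i/LIF replicate 3 (-0.77, adjusted p = 0.00126). Gnpnat1, change of EMM against 2i/LIF from P10 to P20 passed without P20 2i/LIF replicate 1 (-0.71, adjusted p = 0.00247). Nagk, 2i/LIF against Serum/LIF, P10 passed without P10 2i/LIF replicate 3 (0.74, adjusted p = 0.000158). Nagk, change of 2i/LIF against Serum/LIF from P10 to P20 passed without P10 2i/LIF replicate 1 (0.92, adjusted p = 0.00593). Ogt, EMM 3 h against Serum/LIF passed without Serum/LIF 0 h replicate 3 (0.20, adjusted p = 0.00171). Pgm3, EMM against 2i/LIF, P10 passed without P10 EMM replicate 1 (0.40, adjusted p = 0.00688). Pgm3, change of EMM against Serum/LIF from P10 to P20 passed without P10 EMM replicate 1 (-0.61, adjusted p = 0.00824).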
